A study of Arabidopsis thaliana with 18 samples.

Results

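The genes described here were read in root apices of one Arabidopsis thaliana ecotype and almost not at all in those of another. A feature was taken when its mean over the 9 Columbia (Col) libraries was at least 1 CPM (the count divided by the library total, times 1000000) and its counts summed over the 9 Landsberg erecta (Ler) libraries came to fewer than 9. Of 32852 features listed for all 18 libraries, 104 met both limits. They were 0.562% of the 18516 features with a mean of at least 1 CPM in Col. The same rule with the ecotypes exchanged gave 76 genes. Another 4 loci that the rule leaves out by name would not have met its limits.

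Wild-type seedlings of both ecotypes were grown for 7 days on nylon mesh over medium with 500 µM phosphate. They were then sampled at 0 h, or 1 h or 2 h after a move to medium without phosphate, with 3 libraries for each ecotype and time, described as biological replicates. The harvested tissue was the last 0.5 cm or so of the root, and the libraries were stranded and poly(A)-selected. Whether the 0 h plants were also moved is unclear, since the protocol text has them placed on fresh medium containing phosphate and the treatment field lists no treatment, so loss of phosphate and the transfer itself cannot be told apart here. Library totals ran from 23451068 to 29277597 counts. The root apex regulators PLT1 (7.68 to 22.5 CPM) and SCR (57.1 to 79.2 CPM) were read in every library, as was CASP1 of the differentiating endodermis (94.8 to 492.5 CPM). The apex gene RGF1 was low (0.0426 to 0.997 CPM). Leaf genes were mixed, with RBCS1A at 1.88 to 24.9 CPM, CAB1 at 2.36 to 26.3 CPM and LHCB2.1 at 0.214 to 5.36 CPM. CAB2 (at most 0.699 CPM), CA1 (at most 1.82 CPM), RBCS1B (at most 0.0737 CPM) and the shoot gene STM (at most 0.288 CPM) were low. Of the seed storage genes, CRU3 was at 0 throughout and SESA1 reached 0.499 CPM. Some means differed between Col and Ler. Those of CASP1 were 290.4 and 156.3 CPM, of the root hair gene EXPA7 128.1 and 69.2 CPM, and of SHV2 97.2 and 82.9 CPM. Those of RBCS1A were 3.92 and 12.5 CPM and of the apex gene WOX5 4.52 and 8.30 CPM. SCR (68.7 and 65.5 CPM) and PLT1 (15.1 and 17.9 CPM) were closer. Whether the make-up of the harvested tissue differed between ecotypes was not tested.

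Ecotypes of one plant species differ in which genes they carry and express. The differences are known to gather in families that grow by tandem duplication, such as NLR immune receptors, F-box proteins and receptor kinases, and in pseudogenes and transposon remnants. Col is the ecotype of the Arabidopsis reference genome. A locus that is silent in Ler, missing from it, or too different in sequence for its reads to be assigned would each give counts near 0, and these counts cannot tell them apart. The sequence to which the Ler reads were aligned is not given in the sources used here.

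Because the genes were chosen on these counts, their difference between ecotypes is a description and was not tested. In Ler, 43 of the 104 genes had no count in any library, 42 had 1 to 3 counts and 19 had 4 to 8. No gene exceeded 4 counts in a single Ler library. Over all 104 genes, each Ler library held 8 to 28 counts, spread over 6 to 21 genes, and each Col library held 19682 to 28862 counts, with all 104 genes detected in all 9. In every gene the lowest Col library stood above the highest Ler library. For the 43 genes at 0, Col was at least 80.2-fold to at least 1885-fold higher, with a median bound of 258-fold, against a floor of 3 counts summed over the 9 Ler libraries. Floors of this kind cover counting error only.

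Most of the genes were moderately or weakly expressed in Col. The median of their Col means was 6.02 CPM, against 19.6 CPM for all features at 1 CPM or more. Of the 104, 32 reached 10 CPM, 47 lay between 2 and 10 CPM and 25 lay below 2 CPM. The highest was the pseudogene AT3G43690, with Col libraries at 44.5, 62.0 and 45.5 CPM at 0 h, 53.7, 57.6 and 63.8 CPM at 1 h and 58.8, 65.2 and 59.5 CPM at 2 h, and 4 counts in all of Ler. The largest bound belonged to AT5G54040, a cysteine/histidine-rich C1 domain gene, which ranged from 12.7 to 36.9 CPM over the Col libraries (median 22.8 CPM) and had no Ler count. The pseudogene AT4G08110, at 17.3 to 22.0 CPM, and the uncharacterized gene AT2G34110, at 14.7 to 28.6 CPM, also had no Ler count, which put Col at least 1596-fold and at least 1490-fold higher.

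Per length the order changed. AT2G34110 led with 31.8 CPM per kb of exon, followed by the noncoding RNA AT5G48412 (24.4 CPM per kb), the uncharacterized AT3G47965 (24.4 CPM per kb), AT3G43690 (21.7 CPM per kb) and NAC001 (20.7 CPM per kb). AT2G34110 overlaps AT2G34080 (13.2 CPM in Col and 15.8 CPM in Ler) and AT2G34090 (8.47 and 8.10 CPM) on the opposite strand. The genes also differed in how steady they were: the highest Col library stood 1.22-fold above the lowest in the noncoding RNA AT4G01593 and 21.2-fold above it in AT3G32040, a terpenoid synthase superfamily gene, with a median of 2.35-fold over the 104.

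**Figure D1:**
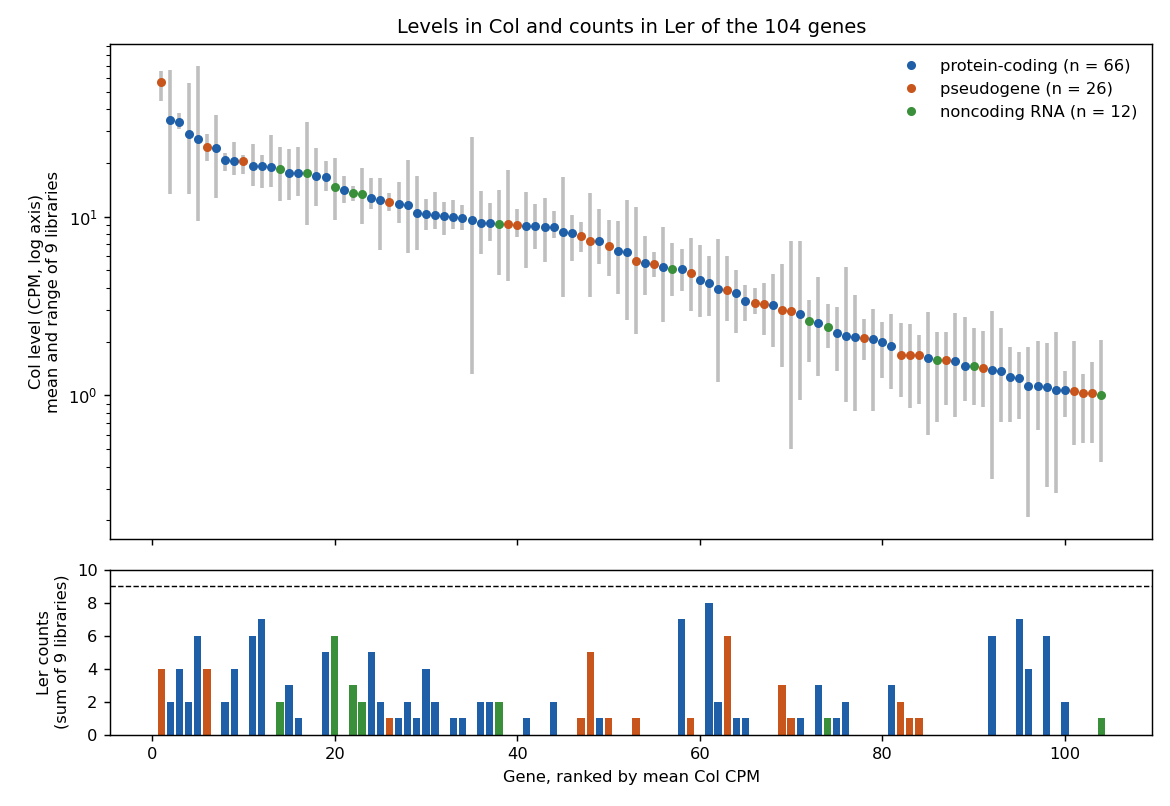
Upper panel, mean level of each of the 104 genes in Col (CPM, log axis; points are means of 9 libraries and grey bars their range), ranked from high to low and coloured by annotated class. Lower panel, counts of the same genes summed over the 9 Ler libraries, with a dashed line at the limit of 9; both the strongest and the weakest Col genes include genes with 0 Ler counts.

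By annotation the 104 genes comprised 66 protein-coding genes, 26 pseudogenes and 12 noncoding RNAs. Pseudogenes made up 25% of them, against 0.988% of the features at 1 CPM or more in Col, and noncoding RNAs 11.5% against 1.05%. Put the other way, 14.2% of the 183 pseudogenes and 6.19% of the 194 noncoding RNAs at that level in Col were among the 104, as against 0.364% of the 18126 protein-coding genes. The genes chosen with the ecotypes exchanged held 43 protein-coding genes, 32 pseudogenes and 1 noncoding RNA. Among the 20 loci nearest to each of the 104, the median share of pseudogenes was 15%, against 0% around all features at 1 CPM or more. The genes had a median of 2 exons against 5, and a median exonic length of 1569 against 1809 bases. Chromosomes 1 to 5 carried 16, 20, 18, 22 and 28 of them. These were 0.328%, 0.715%, 0.490%, 0.786% and 0.643% of the features at 1 CPM or more in Col on each chromosome.

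Immune receptor genes were weakly expressed. AT4G10780 (1.26 CPM), an NLR gene, and AT4G09420 (1.55 CPM), of the TIR-NBS class, had no Ler count, and the TIR domain gene AT5G38344 (1.25 CPM) had 7. Genes of that group at 1 CPM or more in Col numbered 150.

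Of 6 receptor kinase genes, SERK5, of the co-receptor family that works with brassinosteroid and immune receptors, was the highest. It lay at 13.4, 11.98 and 13.2 CPM at 0 h, 15.8, 16.9 and 14.1 CPM at 1 h and 15.7, 13.9 and 12.6 CPM at 2 h, with no Ler count. AT3G46400 followed at 8.87 ± 2.96 CPM (SD over 9 libraries), then AT5G59660 (5.22 CPM), AT1G51870 (4.42 CPM), AT3G46340 (2.08 CPM) and AT3G46370 (1.37 CPM). Of the 6, AT3G46400 had 1 Ler count and the others none. A further leucine-rich repeat gene with no kinase in its annotation, AT3G43740, lay at 16.7 CPM with 5 Ler counts. Receptor kinases and receptor-like proteins at 1 CPM or more in Col numbered 708.

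The family with most genes among those counted was that of cysteine/histidine-rich C1 domain proteins, zinc-binding proteins of mostly unassigned function, with 9 of 107 such genes at 1 CPM or more. Their Col means ran from 1.40 CPM (AT2G17600) to 24.3 CPM (AT5G54040). AT5G43040 (17.6 CPM), AT4G01910 (16.9 CPM), AT4G01920 (12.4 CPM) and AT5G43030 (10.4 CPM) were next to the top. In Ler the 9 genes ranged from 0 counts, in AT5G54040 and AT4G01910, to 8 counts, in AT1G44030.

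Regulators included 3 F-box genes, whose products select proteins for ubiquitination: AT5G56380 (7.28 CPM), AT5G42460 (3.21 CPM) and AT5G56370 (1.99 CPM). F-box genes at 1 CPM or more in Col numbered 157. There were 4 transcription factor genes, 3.85% of the 104 against 3.48% of the features at that level in Col. NAC001 was by far the strongest at 35.0 ± 15.9 CPM (SD, n = 9), and AT4G00130 (2.16 CPM), AT1G30140 (1.46 CPM) and AT4G00390 (1.13 CPM) carried storekeeper or Myb/SANT-like DNA-binding domains. Metabolic genes included terpenoid genes AT3G32030 (29.1 CPM), AT3G32040 (9.54 CPM) and AT4G20210 (9.25 CPM), 3 of only 16 such genes at 1 CPM or more, with the cytochrome P450 AT3G32047 (2.86 CPM). TT10, a laccase that oxidizes seed coat flavonoids, lay at 2.55 CPM. Transport was represented by GLR2.1, a glutamate receptor-like channel (17.6 CPM), and AT5G26200, a mitochondrial carrier (1.11 CPM). These 2 were 1.92% of the 104, against 3.08% of the features at 1 CPM or more in Col.

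Other named genes spanned lectins, meiosis and lipids. PP2-A8, a phloem protein 2 with a lectin-type domain, averaged 27.3 CPM, and ASY2, a HORMA domain relative of the meiotic chromosome axis protein ASY1, averaged 19.2 CPM with 6 Ler counts. ARV1, of a family linked to sterol and lipid homeostasis, averaged 11.6 CPM with 2 Ler counts. AT3G61010, annotated as a ferritin/ribonucleotide reductase-like gene, was among the steadiest at 30.9 to 38.1 CPM, with 4 Ler counts. Its closest protein match was ENGase85B (61.8% identical over 78% of the length), so that annotated name is uncertain. SPRY domain genes, which carry a protein interaction fold, made up 3 of the 6 at 1 CPM or more, and 15 genes coded for proteins of unknown function.

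The 26 pseudogenes ran from 1.04 to 56.7 CPM in Col. After AT3G43690 and AT4G08110 the highest were the neighbouring pair AT2G13970 and AT2G13975 on chromosome 2, at 24.6 and 12.1 CPM with 4 Ler counts and 1. The 12 noncoding RNAs ran from 1.01 to 18.4 CPM. AT2G15292 (18.4 CPM, 2 Ler counts), AT5G48412 (17.5 CPM, 0), AT2G09795 (14.7 CPM, 6), AT4G01593 (13.6 CPM, 3) and AT4G38932 (13.4 CPM, 2) led them. Among proteins of unknown function the highest were AT5G28919 (20.5 CPM, 4 Ler counts), AT4G07825 (19.1 CPM, 7) and AT2G34110 (19.0 CPM, 0). The ankyrin repeat genes AT4G05040 (9.98 CPM, 1 Ler count) and AT4G03500 (8.74 CPM, 0) lay above the median of the 104.

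Several of the protein-coding genes had a near copy elsewhere that was read in both ecotypes. Translated from the reference annotation, 60 of the 66 matched another Arabidopsis protein. The closest match was taken as the one with the highest BLAST score summed over all aligned stretches. Such a sum can favour proteins with repeats over nearer relatives. For SERK5 it picked AT1G17230 (37.2% identical), though the SERK5 transcript was 88.9% identical to that of SERK4 over 83.4% of its length. The counts that follow may therefore be too low. For 47 the closest match was at least 50% identical over at least 80% of the length, for 23 at least 70% and for 9 at least 90%. Of the 47 closest matches, 11 were to genes themselves among the 104, 1 was not listed in the count tables and 35 were to other listed genes. Since AT4G02180 was the closest match of AT4G01910, AT4G01920 and AT4G01930, these were 33 distinct genes. Of the 33, 23 reached 1 CPM in both ecotypes, and 19 of these 23 lay within 2-fold between Col and Ler.

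Copies of genes for core cell machinery showed this most plainly. AT2G14285, a small nuclear ribonucleoprotein gene of the pre-mRNA splicing machinery, had Col libraries at 5.63 to 10.3 CPM and no Ler count. Its protein was 100% identical over its length to that of RUXF (AT4G30220), which ranged from 45.5 to 85.1 CPM in Col and from 43.9 to 80.3 CPM in Ler. RUXF did not pass the test between ecotypes (log2 change −0.03, SE 0.09, adjusted p = 0.832, edgeR quasi-likelihood test). AT2G34840, a coatomer epsilon subunit gene of the vesicle coat between Golgi and endoplasmic reticulum, ranged from 18.0 to 22.6 CPM in Col with 2 Ler counts. Its 86.7% identical relative AT1G30630 stood at 192 to 242.8 CPM in Col and 165 to 208.8 CPM in Ler (log2 change −0.25, SE 0.05, adjusted p = 0.00235). AT2G01090, a hinge protein gene of respiratory complex III, ranged from 7.59 to 10.7 CPM in Col with 2 Ler counts, and its relative AT1G15120, 81.4% identical, overlapped fully between the ecotypes (median 159.7 CPM in Col and 226.3 CPM in Ler, adjusted p = 0.952).

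The coding sequences of these pairs show how far apart the copies are. Each line gives the first 60 bases that align without a gap, from the RefSeq annotation of TAIR10.1, with the bases that differ within the pair in capitals. AT2G14285 lies on chromosome 2 (chr2:6052332-6053994, minus strand) and RUXF on chromosome 4 (chr4:14802931-14804461, minus strand). AT2G34840 is at chr2:14702488-14704371 (plus strand) and AT1G30630 at chr1:10858232-10860322 (minus strand). AT2G01090 is at chr2:79779-81710 (plus strand) and AT1G15120 at chr1:5202593-5204494 (plus strand).
AT2G14285: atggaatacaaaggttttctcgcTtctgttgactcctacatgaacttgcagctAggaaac
RUXF: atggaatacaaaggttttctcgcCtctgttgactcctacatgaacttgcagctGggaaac
AT2G34840: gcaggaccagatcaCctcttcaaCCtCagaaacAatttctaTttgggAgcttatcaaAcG
AT1G30630: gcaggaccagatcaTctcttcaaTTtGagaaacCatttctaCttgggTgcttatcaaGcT
AT2G01090: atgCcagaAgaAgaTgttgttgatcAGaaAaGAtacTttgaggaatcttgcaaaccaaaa
AT1G15120: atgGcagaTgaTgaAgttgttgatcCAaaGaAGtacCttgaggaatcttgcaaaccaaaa

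Over the whole aligned coding sequence, AT2G14285 differed from RUXF at 14 of 186 bases, AT2G34840 from AT1G30630 at 127 of 879 and AT2G01090 from AT1G15120 at 25 of 189. In the stretches printed, the pairs differed at 2, 9 and 10 bases. Reads from stretches without a difference match both copies equally, and how such reads were counted is not given in the sources used here.

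Some of the 104 were copies of each other. The SPRY domain genes AT4G09200 (chr4:5859244-5861880) and AT4G09310 (chr4:5902813-5905449), both on the plus strand, have the same coding sequence of 1194 bases, and AT4G09250 (chr4:5876578-5878978) differs from it at 0 of 1050 aligned bases. All 3 begin with the line below, printed with no capitals because no base differs.
AT4G09200: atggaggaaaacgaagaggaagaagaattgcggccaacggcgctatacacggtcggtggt

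Their Col means were 10.3, 8.84 and 9.18 CPM and their Ler counts 2, 0 and 2, so the 3 were alike in both ecotypes. AT5G50565 (10.0 CPM, no Ler count) and AT5G50665 (9.81 CPM, 1 Ler count) likewise share a coding sequence of 417 bases. Counts of such pairs are uncertain, because reads from one can be assigned to the other.

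A few close copies were higher in Ler, and several were lower. AT3G29430, whose protein is 91.4% identical to that of AT3G32040, ranged from 1.63 to 6.91 CPM in Col and from 5.78 to 19.2 CPM in Ler (log2 change 1.63, SE 0.24, adjusted p = 6.53e-05). PTAC18, 96.2% identical to AT2G27402 over the protein of the latter, ranged from 0.469 to 1.12 CPM in Col and from 1.89 to 3.69 CPM in Ler, without overlap (log2 change 1.92, SE 0.15, adjusted p = 4.03e-08). By transcript, the closest match of AT2G27402 was another gene, AT2G32650, 91.3% identical over 28.5% of the length. AT2G32650 was lower in Ler (median 2.94 CPM in Col and 1.15 CPM in Ler, log2 change −1.40, SE 0.13, adjusted p = 4.95e-07, edgeR quasi-likelihood test). AT2G31585, whose transcript is 96.5% identical to most of the noncoding RNA AT5G48412, had a median of 5.07 CPM in Col and 16.2 CPM in Ler (log2 change 1.13, SE 0.28, adjusted p = 0.00546). The reverse was seen for several others. AT5G55790, 83.5% identical to AT1G45163, had a median of 8.91 CPM in Col and 0.184 CPM in Ler. AT1G44020, 73.7% identical to AT1G44030, was lower in Ler (log2 change −2.13, adjusted p = 3.54e-06, edgeR quasi-likelihood test). So were AT5G24990, 81.8% identical to AT5G25020 (−1.32, adjusted p = 1.24e-06), and AT1G51860, 78.6% identical to AT1G51870 (−0.71, adjusted p = 0.00187). For AT5G54040, the closest protein AT5G54050 was lower (−1.67) and the closest transcript AT5G54030 higher (0.92). Other close copies were low in both ecotypes. AT1G27565, 93.6% identical to the uncharacterized AT1G52905 (6.39 CPM in Col, no Ler count), averaged 0.302 CPM in Col and 0.0124 CPM in Ler, and AT5G37940, 94.3% identical to the dehydrogenase AT5G38000 (3.94 CPM in Col, 2 Ler counts), averaged 0.141 and 0.295 CPM. Whether reads moved between copies was not tested.

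**Figure D2:**
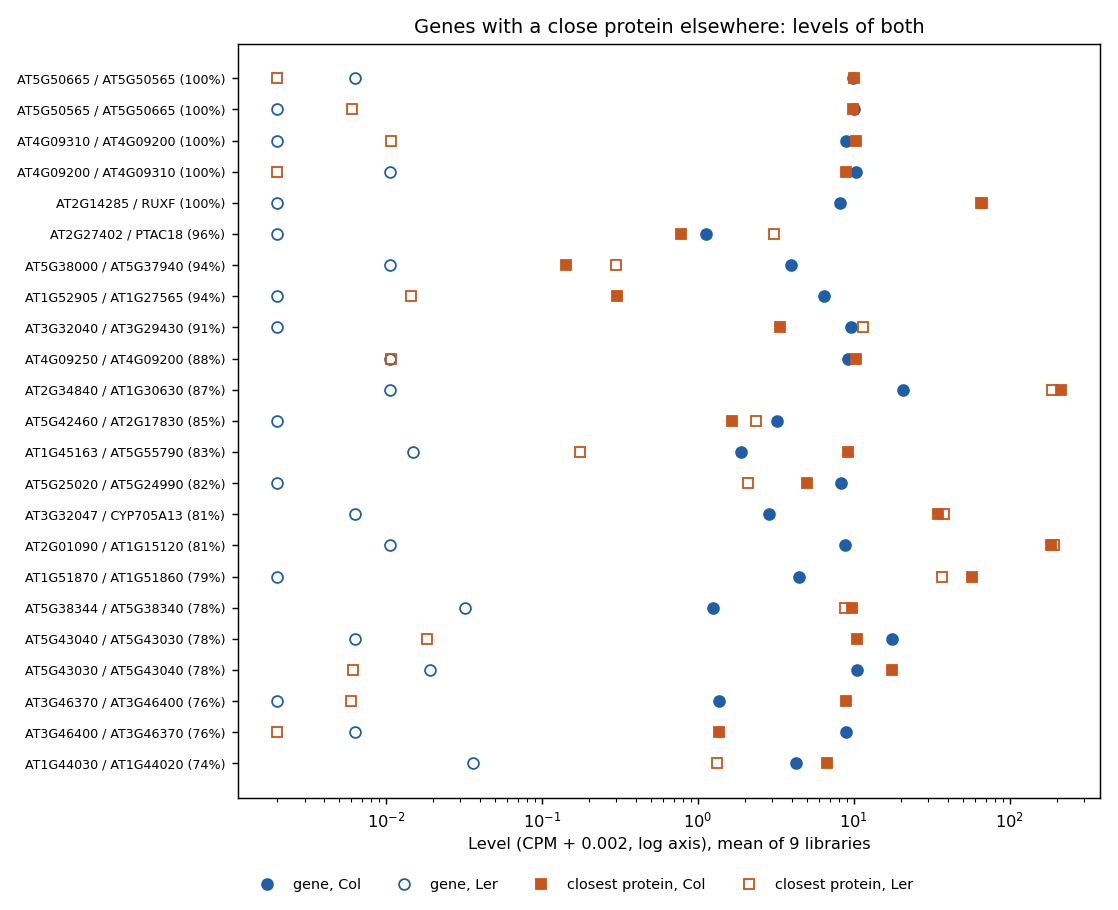
Levels of the 23 protein-coding genes whose closest protein is at least 70% identical over at least 80% of the length (circles) and of that closest protein's gene (squares), in Col (filled) and Ler (open), as CPM + 0.002 on a log axis, means of 9 libraries. Open circles sit at the left for every gene, while the squares of RUXF, AT1G30630 and AT1G15120 nearly coincide.

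The 104 genes were partly clustered along the chromosomes. With runs defined as genes no more than 3 loci apart, 24 of the 104 lay in 11 runs of 2 or 3. Allowing 10 loci gave 14 runs with 34 genes. On chromosome 3 the terpenoid genes AT3G32030 and AT3G32040 and the P450 AT3G32047 lay within chr3:13032306-13062768. The pseudogenes between them, AT3G32035 and AT3G32043, were at or near 0 in both ecotypes. Terpenoid synthases build terpene skeletons that P450 enzymes then oxidize.

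A second run on chromosome 3 held the leucine-rich repeat kinase genes AT3G46340, AT3G46370 and AT3G46400 with the transcribed pseudogene AT3G46385 (8.93 CPM, no Ler count). The loci between them that are listed for all libraries reached at most 0.0534 CPM in Col (AT3G46350). On chromosome 4 the SPRY domain run also held the LisH and RanBPM domain gene AT4G09300 (2.11 CPM, no Ler count), and the 7 loci inside it that are not among the 104 were at 0 in both ecotypes. On either side of that run, FBH2 (16.3 CPM in Col and 15.4 CPM in Ler) and NDPK1 (419.2 and 445.4 CPM) were close between the ecotypes.

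Elsewhere a gene read in both ecotypes sat inside a run. Between the C1 domain genes AT4G01920 and AT4G01930, the C1 domain gene AT4G01925 ranged from 9.50 to 14.0 CPM in Col and from 9.01 to 11.5 CPM in Ler. Those ranges overlapped, and the small difference passed the test (log2 change −0.26, SE 0.08, adjusted p = 0.0162). AT4G01915, in the same run, had 0.641 CPM in Col and 1 Ler count. On chromosome 1, the exocyst subunit genes SEC3A (109.6 CPM in Col and 116.5 CPM in Ler) and SEC3B (11.3 and 14.1 CPM) stood between the pseudogenes AT1G47520 and AT1G47565. On chromosome 3, BPM6 (11.7 and 12.8 CPM) stood between AT3G43690 and AT3G43740 (adjusted p = 0.520 between ecotypes).

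The remaining runs were pairs. NAC001 and ARV1 head chromosome 1. Their nearest expressed neighbour, 3 loci past ARV1, is the microRNA-processing gene DCL1, which was higher in Ler (41.4 to 50.9 CPM in Col and 89.5 to 119.3 CPM in Ler, log2 change 1.18, SE 0.05, adjusted p = 7.09e-11). AT5G28919 (20.5 CPM) and AT5G28920 (5.48 CPM) overlap over 1737 bases on opposite strands. Whether strand was used in counting is not given in the sources used here, so their levels are uncertain. The others were the F-box pair AT5G56370 and AT5G56380, the C1 domain pair AT5G43030 and AT5G43040, the dehydrogenase gene AT5G38000 with the noncoding RNA AT5G38005, and pseudogene pairs on chromosome 2.

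**Figure D3:**
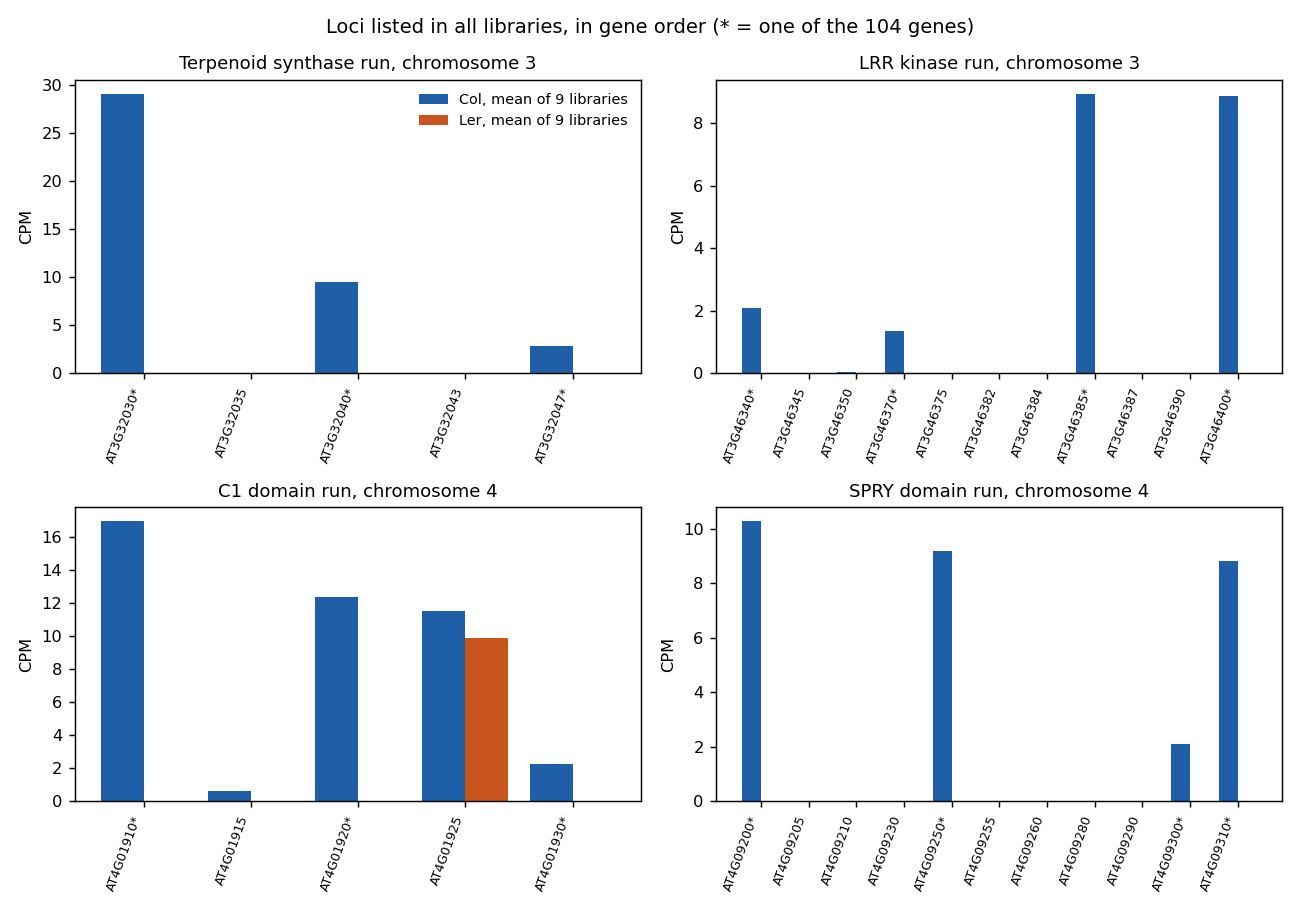
Mean CPM over 9 Col libraries and 9 Ler libraries for the loci of 4 runs, in gene order; an asterisk marks one of the 104 genes, and only loci listed for all libraries are drawn. AT4G01925 has bars of similar height in both ecotypes (11.5 and 9.89 CPM), while no asterisked gene has a visible Ler bar.

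To see whether the difference reached beyond the genes themselves, the nearest expressed locus on each side was compared between Ler and Col. Such a locus was not among the 104 and had a mean of at least 1 CPM over all 18 libraries. These neighbours numbered 167, a median of 3 and at most 158 loci away, and their own difference was not used to choose the 104. Some overlap the gene beside them, such as AT1G31910 (629 bases, same strand) and AT4G03490 (1068 bases, opposite strand), and some are its close copies. The shares below were not split by distance, overlap or family. Of the 167, 105 passed the edgeR quasi-likelihood test at an adjusted p under 0.05 (62.9%), with 47 higher and 58 lower in Ler. Over all 20599 features tested the share was 32.7%, and over 18674 expressed features outside the 104 it was 31.2%. Neighbours that passed the test and differed at least 2-fold made up 28.7%, against 6.89% of those expressed features. The median absolute log2 difference was 0.449 in the neighbours and 0.184 in the expressed features. Of the 167, 119 (71.3%) lay within 2-fold between ecotypes, against 93.1% of the 18674 expressed features. Both neighbours lay within 2-fold for 56 of the 104 genes.

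Among neighbours lower in Ler, AT3G61020, next to AT3G61010, ranged from 17.3 to 24.1 CPM in Col and from 0.126 to 0.553 CPM in Ler (log2 change −6.14, SE 0.18, adjusted p = 3.73e-13). AT5G38350, next to the TIR domain gene AT5G38344, ranged from 2.64 to 6.70 CPM in Col and from 0 to 0.168 CPM in Ler (log2 change −6.09, SE 0.33, adjusted p = 7.30e-10). RHS6, next to the kinase gene AT1G51870, ranged from 4.95 to 15.4 CPM in Col and from 1.09 to 2.27 CPM in Ler (log2 change −2.60, SE 0.18, adjusted p = 1.64e-08). None of these ranges overlapped. The root hair and mature root markers EXPA7, CASP1 and SHV2 also had lower means in Ler. Whether tissue make-up contributed to the differences of neighbours was not tested. SPL13A and SPL13B, transcription factor genes of the SPL family within 2 loci of the identical pair AT5G50565 and AT5G50665, had medians of 2.77 and 2.56 CPM in Col and 0.995 and 0.885 CPM in Ler (adjusted p = 2.18e-06 and 1.16e-06). SPL13A overlaps AT5G50565 over 96 bases on the opposite strand. How alike SPL13A and SPL13B are in sequence was not examined, so their 2 differences may not be independent.

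Some neighbours higher in Ler were relatives of the gene beside them. SERK4, the neighbour of SERK5, ranged from 15.4 to 32.9 CPM in Col and from 47.4 to 60.8 CPM in Ler (log2 change 1.21, SE 0.08, adjusted p = 6.62e-09). AT5G59650, next to the leucine-rich repeat kinase gene AT5G59660, ranged from 2.57 to 4.32 CPM in Col and from 10.98 to 16.3 CPM in Ler (log2 change 1.89, SE 0.10, adjusted p = 4.85e-10). AT1G70880, next to the transcribed pseudogene AT1G70885, ranged from 0.249 to 3.28 CPM in Col and from 6.13 to 38.7 CPM in Ler (log2 change 4.47, SE 0.33, adjusted p = 2.46e-08). The closest transcript match of AT1G70885 was MLP34 (81.5% identical over 51.8% of the length), and its neighbour on the other side was MLP43. Whether AT1G70880 is a relative of AT1G70885 was not examined. These neighbours were chosen for their size of change or their family after the values were seen. A gene of the exchanged kind, near 0 in Col and read in Ler, lay within 3 loci of only 1 of the 104: AT1G44045 (2.07 CPM in Ler, 3 counts in all of Col) near AT1G44030. The calcium-dependent kinase gene CPK31, 2 loci from the transcribed pseudogene AT4G04692, had 18.5 CPM in Col and 18.4 CPM in Ler. Of 452 other loci within 3 of the 104 genes that are listed for Col, 14 (3.10%) are not listed for Ler, against 1.38% of all 32835 annotated nuclear loci.

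**Figure D4:**
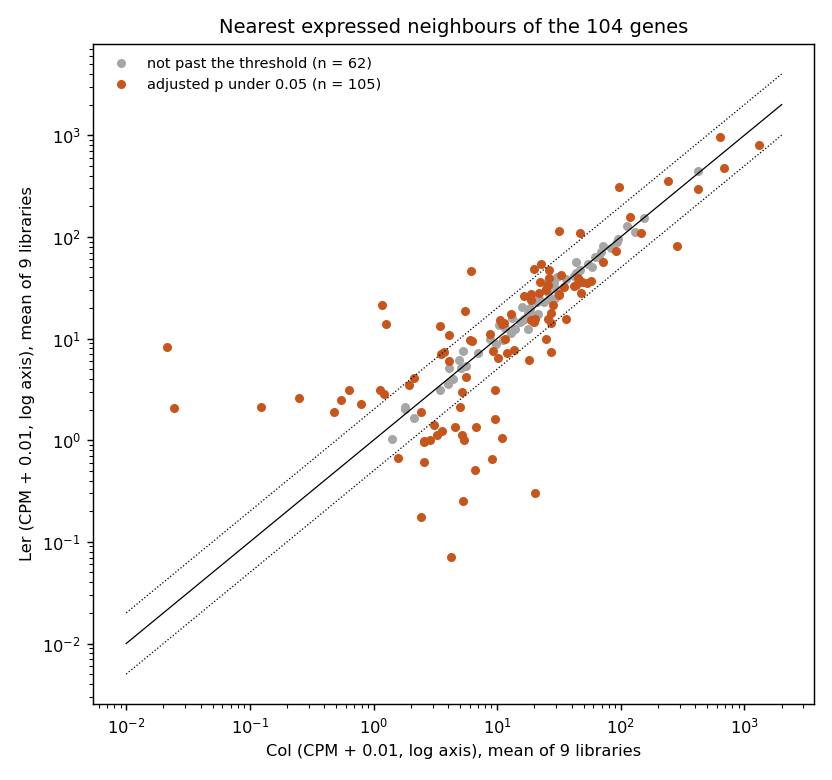
Mean level over 9 Col libraries (horizontal) and 9 Ler libraries (vertical) of the 167 nearest expressed neighbours, as CPM + 0.01 on log axes, with the line of equality and dotted lines at 2-fold. The 105 neighbours past an adjusted p of 0.05 lie on both sides of the line, 47 above and 58 below.

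The level of the 104 genes across time could be tested only in Col, by contrasting 1 h and 2 h with 0 h in a single edgeR quasi-likelihood fit that included all 18 libraries. The rule used the mean of the 9 Col libraries and not their order in time. All 104 passed the filter on low counts, which left 20599 features. In whole apices, fewer cells that express a gene and less RNA per cell cannot be told apart. At 1 h, 7 of the 104 passed an adjusted p of 0.05 (6.73%), 2 of them higher and 5 lower, against 11.1% of all features tested. At 2 h, 2 passed, both lower (1.92%, against 6.39%), and 11 had an unadjusted p under 0.05 (10.6%, against 25.6% of all features tested). Between 2 h and 1 h, 1 passed, lower (0.962%, against 2.23%). The median log2 changes of the 104 were −0.02, −0.03 and −0.04, against 0.03, 0.01 and 0.00 over all features tested.

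Col libraries with the same replicate number deviated together, so the same contrasts were also fitted with the number as a block. The calls then rose to 18 of the 104 at 1 h (6 higher, 12 lower; 17.3% against 21.7% of all features), 10 at 2 h (1 higher, 9 lower; 9.62% against 22.1%) and 2 between 2 h and 1 h (1.92% against 5.65%). In both fits the share among the 104, which are lower in level than expressed features as a whole, lay below the share over all features.

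PP2-A8 rose and fell again. It stood at 20.7, 16.5 and 18.0 CPM at 0 h, 69.2, 46.2 and 35.5 CPM at 1 h and 20.1, 9.42 and 10.07 CPM at 2 h. Every 1 h library lay above every 0 h and 2 h library. The rise at 1 h had a log2 change of 1.45 (SE 0.35, adjusted p = 0.0126, edgeR quasi-likelihood test) and the fall from 1 h to 2 h one of −1.96 (SE 0.35, adjusted p = 0.00738). The rise lost its call without replicate 3 of 0 h, and the fall without replicate 3 of 2 h or when the fit held just the contrasted libraries.

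NAC001 rose at 1 h. Its libraries stood at 32.4, 13.3 and 22.0 CPM at 0 h, 66.6, 51.9 and 38.6 CPM at 1 h and 31.9, 30.7 and 27.5 CPM at 2 h. The 1 h libraries lay above all others (log2 change 1.22, SE 0.29, adjusted p = 0.0205). The call was lost without replicate 3 of 0 h, without replicate 1 or 2 of 1 h, and when the fit held just the contrasted libraries. Its neighbour ARV1 did not pass the test at either time.

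Among genes that fell at 1 h, the pseudogene AT5G28145 held its call under every alternative run. It stood at 4.35, 4.48 and 5.41 CPM at 0 h, 1.79, 1.67 and 1.44 CPM at 1 h and 2.16, 2.61 and 3.13 CPM at 2 h, with no overlap between 0 h and 1 h (log2 change −1.54, SE 0.31, adjusted p = 0.00539). Its fall at 2 h passed in edgeR with the block (adjusted p = 0.0894 without it and 0.0311 with it) and in DESeq2 without one (adjusted p = 0.0118). The kinase gene AT5G59660 stood at 6.27, 8.75 and 7.89 CPM at 0 h and 3.31, 2.56 and 4.10 CPM at 1 h, also without overlap (log2 change −1.21, SE 0.27, adjusted p = 0.0211). This call was lost without replicate 3 of 0 h or replicate 2 of 1 h.

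The mitochondrial carrier gene AT5G26200 fell from 1.96, 1.93 and 1.07 CPM at 0 h to 0.622, 0.321 and 0.307 CPM at 1 h (log2 change −1.99, SE 0.53, adjusted p = 0.0235), and stood at 1.73, 1.101 and 0.965 CPM at 2 h. With the block its return from 1 h to 2 h also passed (log2 change 1.58, adjusted p = 0.0359). The dehydrogenase gene AT5G38000 fell from 4.78, 5.78 and 7.50 CPM to 2.30, 2.74 and 1.20 CPM at 1 h (log2 change −1.53, SE 0.43, adjusted p = 0.0369). Both changes left the groups without overlap. The call for AT5G26200 was lost without replicate 1 of 0 h or replicate 2 or 3 of 1 h, and that for AT5G38000 without replicate 1 or 3 of 0 h or any 1 h replicate. Fitting just the contrasted libraries lost both calls, and a fit of only the 9 Col libraries lost that for AT5G38000 (adjusted p = 0.0633).

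The pseudogene AT2G11150 fell at both times. It stood at 7.93, 9.01 and 11.4 CPM at 0 h, 4.98, 2.21 and 5.43 CPM at 1 h and 3.42, 3.14 and 3.59 CPM at 2 h. The later libraries all lay below those at 0 h. The log2 changes were −1.17 (SE 0.33, adjusted p = 0.0409) at 1 h and −1.51 (SE 0.33, adjusted p = 0.0257) at 2 h. Both calls were lost in a fit of only the 9 Col libraries, that at 1 h also when the fit held just the contrasted libraries, and each was lost without any 1 of at least 5 libraries, among them replicates 1 and 3 of 0 h. Its neighbour AT2G11140, a pseudogene in the same run, was steady at 4.60 to 6.31 CPM.

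In the terpenoid run on chromosome 3, AT3G32047, the P450 gene, stood at 7.29, 3.60 and 3.92 CPM at 0 h, 2.96, 1.60 and 1.81 CPM at 1 h and 1.87, 0.938 and 1.78 CPM at 2 h. It fell at 2 h (log2 change −1.72, SE 0.42, adjusted p = 0.0346), with all 2 h libraries below all 0 h libraries. That call was lost without replicate 1 or 3 of 0 h or any 2 h replicate, in a fit of only the 9 Col libraries (adjusted p = 0.0713) and when the fit held just the contrasted libraries.

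The terpenoid genes beside it were higher and more variable. AT3G32030 stood at 46.8, 25.1 and 56.0 CPM at 0 h, 39.0, 13.4 and 23.7 CPM at 1 h and 25.5, 15.1 and 17.4 CPM at 2 h, and AT3G32040 at 27.9, 5.40 and 16.2 CPM, 13.7, 1.32 and 3.35 CPM, and 9.56, 3.55 and 4.90 CPM. In all 3 genes replicate 2 was the lowest of its group at every time, and the times overlapped for both terpenoid genes.

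In edgeR without the block neither terpenoid gene passed (adjusted p = 0.0735 for AT3G32030 and 0.289 for AT3G32040 at 2 h), though DESeq2 without a block called AT3G32030 at 2 h (adjusted p = 0.0406). With it both passed at 1 h (log2 changes −0.81 and −1.68, adjusted p = 0.0159 and 0.00958) and at 2 h (−1.14 and −1.34, adjusted p = 0.00409 and 0.0284), and AT3G32047 passed at 1 h as well (−1.20, adjusted p = 0.0109, and 0.0405 in DESeq2 without a block). The related AT4G20210, on chromosome 4, rose at 1 h with the block (log2 change 0.62, adjusted p = 0.0464) and in DESeq2 without one (adjusted p = 0.0357). The ribonuclease H-like gene AT4G03292 was the 1 gene called higher at 2 h with the block (log2 change 1.24, adjusted p = 0.0184).

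Other genes passed in the edgeR fit with the block and not in the one without it. At 1 h, lower calls included the enhanced disease resistance-like gene AT5G25020 (adjusted p = 0.00826), the transcribed pseudogene AT1G70885 (0.00312) and the noncoding RNAs AT4G38932 (0.0245) and AT5G38005 (0.0409). Higher calls at 1 h included the C1 domain gene AT2G17600 (0.0380) and the transcribed pseudogene AT5G38096 (0.00334). At 2 h, lower calls included the C1 domain genes AT5G54040 (0.0261) and AT4G01910 (0.0387), the uncharacterized AT5G66052 (0.0462) and AT4G38932 again (0.0146). DESeq2, without a block, also called AT4G38932 at 1 h (0.00261) and 2 h (0.000998), and AT5G25020 (0.0130), AT1G70885 (0.0264) and AT5G38096 (0.0409) at 1 h. SERK5, AT4G10780, AT4G09420 and AT5G38344 passed in neither edgeR fit.

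**Figure D5:**
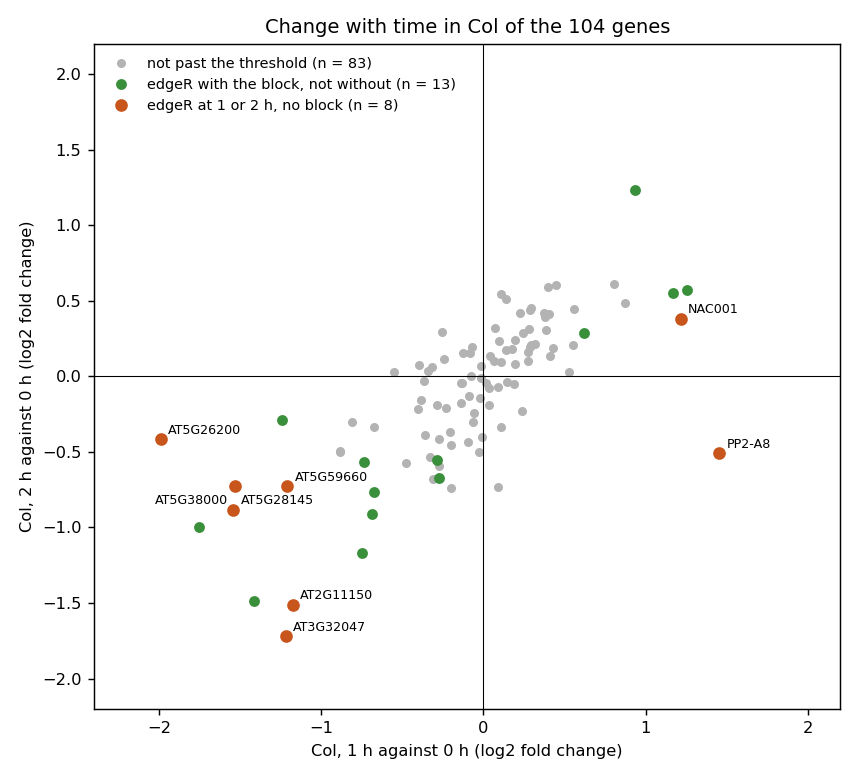
Log2 change in Col of each of the 104 genes at 1 h (horizontal) and 2 h (vertical) against 0 h, from the fit without the replicate block. The 8 labelled genes passed an adjusted p of 0.05 at 1 h or 2 h in edgeR without the block, and 13 more passed in edgeR with it; PP2-A8 lies alone at the lower right, up at 1 h (1.45) and not at 2 h (−0.51).

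The limits of the rule fall within a continuum. Just inside the Col limit were AT5G44569 (1.01 CPM, 1 Ler count), AT3G62725 and AT3G32377 (both 1.04 CPM, no Ler count), and just outside it AT3G28153 (0.997 CPM, 0 counts), AT3G30410 (0.983 CPM, 0 counts) and AT4G22090 (0.979 CPM, 8 counts). At the Ler limit, AT1G44030 had 8 counts and AT4G07825 and AT2G02690 had 7. AT2G06950, at 80.9 CPM in Col and with 9 Ler counts, fell just outside, as did AT1G60830 (2.27 CPM) and AT3G26480 (2.83 CPM) with 10. Another listed feature overlaps 2 of the 104 on the same strand and 13 on the opposite strand. The transcribed pseudogene AT1G31900 shares 629 bases of the same strand with AT1G31910, which ranged from 232.7 to 329.5 CPM in Col and from 69.4 to 90.2 CPM in Ler (log2 change −1.86, SE 0.07, adjusted p = 3.47e-12), so the 1.57 CPM assigned to it in Col is uncertain.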

How the data were processed

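Raw read counts per feature, 1 table per library, were deposited by the authors. Per the submitters' processing notes the tools included TopHat2 and Bowtie2 and the build was TAIR10. The counting tool, the annotation, the sequence used for Ler, strand handling and the treatment of reads with several matches are not given in the sources used here. Gene classes, order and sequences came from RefSeq TAIR10.1, which all 104 genes matched.

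CPM were computed on library totals. Counts were tested with edgeR 4.0.16 (filterByExpr, minimum 10 counts, 15 in total, TMM scaling, glmQLFit on 6 group means over 18 libraries, glmQLFTest, 12 residual degrees of freedom, Benjamini-Hochberg over 20599 features, threshold 0.05). SE is the log2 change over the root of F. On simulated counts for Col at 1 h, 63 of 100 genes changed 2-fold and 96 of 100 changed 4-fold were called, with 4 of 20399 false calls. Those counts were drawn independently from the trend of spread with level, without gene-specific spread or correlation by replicate number. The changed genes had at least 10 expected counts at 0 h. Recovery and false calls in the real data may therefore differ. Proteins and transcripts were compared with BLAST 2.17.0 (e-value 1e-05).

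Within Col, deviations from group means correlated between all 9 same-number pairs (0.271 to 0.535), so the replicate number was used as a block beside the fit without it. The pairing comes from the numbers in the labels, which do not say what they mark. Across ecotypes the 27 same-number correlations ran from 0.00574 to 0.542.

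Genes named were the 15 highest in Col, up to 10 per Col time contrast past the threshold, those in runs, those at the limits of the rule and those with a protein match of at least 90% over 80%; others were named for their family after the values were seen. The members and lists were chosen with earlier results of these data known. Alternatives were RLE factors, DESeq2 1.42.0, other filters, the block, fewer libraries and each library left out in turn. Fits of only the 9 Col libraries, with and without the block, were added after seeing the data. A withheld item is not reported here.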

Additional observations from a re-analysis of the deposited data

How the results depend on the processing

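The number of genes meeting the rule ran from 103 to 109 when each library was left out in turn, and 43 had 0 Ler counts. With the replicate block, features past the threshold in Col numbered 4462 at 1 h, 4550 at 2 h and 1163 between 2 h and 1 h (2282, 1316 and 460 without it), and the genes described here 18, 10 and 2 (7, 2 and 1 without it). DESeq2 called 13 of the 104 at 1 h (12.5%, against 14.9% of all features) and 5 at 2 h (4.81%, against 12.2%). Features it called numbered 3072 at 1 h, 2503 at 2 h and 885 between 2 h and 1 h. A fit of only the libraries contrasted called 791, 370 and 66 features, with 3, 1 and 0 of the 104. A fit of only the 9 Col libraries, added after seeing the data, called 1353, 183 and 123 features, with 0 of the 104 at 2 h. In that fit 12 of the 104 had an unadjusted p under 0.05 at 2 h (11.5%, against 21.4% of all features). With the block it called 4011, 3874 and 781 features, with 20, 13 and 2 of the 104.

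Leaving out each library in turn gave 1159 to 3101 features and 2 to 10 of the 104 at 1 h, 271 to 3241 and 0 to 7 at 2 h, and 165 to 637 and 0 to 1 between 2 h and 1 h. At 1 h, 2 of the 104 passed without Col 0 h replicate 3 or Col 1 h replicate 2, and 4 without Col 0 h replicate 1. At 2 h, 0 passed without Col 0 h replicate 1 or 3 or any Col 2 h replicate, and 7 without Col 0 h replicate 2. Features differing between Ler and Col numbered 6034 to 6931 (6734 with all libraries), and neighbours 100 to 107 (105 with all). With the block 8932 features differed between ecotypes. Of 259 alternative values for the 10 log2 changes called in Col, 0 changed sign and 42 no longer passed the threshold. Where the cause of a shift is not the number of libraries, it was not tested.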
